A study of Homo sapiens with 2 samples.

Results

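The noncanonical NF-κB pathway was examined in RNA-seq counts of Ramos and Ramos640 cells through 10 genes of the 37122 in the table. The 10 genes were chosen by name, with earlier results of these data known. They encode the lymphotoxin β receptor (LTBR), the adaptors TRAF1, TRAF2, TRAF3, TRAF5 and TRAF6, the kinases NIK (MAP3K14) and IKKα (CHUK), and the transcription factor subunits p100/p52 (NFKB2) and RelB (RELB). All 10 had a row in the table. Ramos is an established human Burkitt's lymphoma cell line of B-cell origin. Ramos640 was derived from it by growth in rising concentrations of rituximab, an antibody against CD20, together with normal human serum (NHS) as a source of complement. It was kept resistant by exposure to rituximab and 20% NHS every 21 days. The sample labels give the maintenance concentration as 640 mg/mL, whereas the study's methods give the same figure in μg/mL. How long before RNA extraction the last exposure took place was not given in the sources used here. Both lines grew in the same serum-supplemented medium. RNA from 3 passages of each line was pooled before sequencing, so each line had 1 library, Ramos640 is a single selected line, and no difference between the lines has a replicate check.

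In the noncanonical pathway, TRAF3 holds NIK in a complex with TRAF2 and the cellular inhibitors of apoptosis BIRC2 and BIRC3, which mark NIK for degradation. Receptors such as CD40, the BAFF receptor and LTBR draw in this complex, TRAF3 is lost, and NIK builds up. NIK then activates IKKα, and p100 is cut to p52, which enters the nucleus with RelB. B cells use this pathway for survival and maturation, and p100 and RelB are themselves products of NF-κB target genes.

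The libraries held 38030090 reads for Ramos and 30871826 for Ramos640. Levels per library total are given as CPM, a gene's reads scaled to a common total. The floor, taken as the 3 reads that a count of 0 still permits, was 0.0789 CPM (Ramos) and 0.0972 CPM (Ramos640). Normalized reads are counts divided by median-of-ratios size factors (1.14 and 0.876). The log2 fold change is of Ramos640 over Ramos with 1 added to each normalized count, and its 95% interval is the exact Clopper-Pearson interval of the share of a gene's reads that came from Ramos640. Reads are not independent molecules, and these intervals cover counting error only. All 8 B cell markers examined were read in both libraries, and their levels summed to 6169 CPM and 7971 CPM. Of these, 2 were higher and 2 were lower by more than 1.5-fold, down to -1.96 on the log2 scale for MS4A1, which encodes CD20. With the trend over GC content removed, 0 were higher and 2 were lower. For this and the other marker lists, the shares of all genes with at least 10 reads were 14.6% higher and 17.3% lower. With the trend removed they were 12.5% and 14.9% of genes with a known GC content. The 6 T cell markers summed to 0.815 and 2.92 CPM, with CD3D, CD2 and CD5 at 0 in both. The 2 T cell markers with at least 10 reads were both higher in Ramos640, CD3E with 1 and 31 reads and CD247 with 25 and 58. The 6 myeloid markers summed to 0.526 and 0.615 CPM, with 1 of the 2 that had at least 10 reads higher, 1 lower and 0 inside both counting intervals. The 8 stromal and epithelial markers summed to 35.0 and 13.4 CPM, with 4 of the 5 that had at least 10 reads lower in Ramos640 by more than 1.5-fold and none higher. The part of such transcripts in the results was not tested.

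The 250 bases before the transcription start are shown for the pathway genes in which they hold a match to the κB consensus, the 10-base motif that NF-κB dimers bind. The sequences are those of RefSeq on GRCh38.p14, and the motif was searched on both strands. RefSeq starts were at hand for 9 of the 10 genes, all but RELB, with 15 starts in all. Of these genes, TRAF3 and NFKB2 had a match, which is 22.2% of 9. Over all 27305 genes with a start, 11.8% had one. Capitals mark the matches, and numbers count back from the start. The TRAF3 sequence lies at chr14:102777199-102777448 on the plus strand.
TRAF3: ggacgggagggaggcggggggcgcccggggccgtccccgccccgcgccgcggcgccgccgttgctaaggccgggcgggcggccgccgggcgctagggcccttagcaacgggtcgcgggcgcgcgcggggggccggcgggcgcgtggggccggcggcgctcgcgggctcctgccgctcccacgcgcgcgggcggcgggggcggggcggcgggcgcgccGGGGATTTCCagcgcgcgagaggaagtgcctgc
The NFKB2 sequence lies before the third RefSeq start of the gene, at chr10:102395455-102395704 on the plus strand.
NFKB2: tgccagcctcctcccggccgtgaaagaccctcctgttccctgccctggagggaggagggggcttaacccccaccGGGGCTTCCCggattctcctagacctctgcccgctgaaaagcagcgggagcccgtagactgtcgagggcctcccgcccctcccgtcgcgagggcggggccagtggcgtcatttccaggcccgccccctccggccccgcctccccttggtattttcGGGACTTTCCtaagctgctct
The match before TRAF3 spans bases -33 to -24. Those before this start of NFKB2 span bases -176 to -167 and -21 to -12. Before the second start of NFKB2 (chr10:102394328-102394577) there were overlapping matches in the 11 bases GGGAATTCCCC at -107 to -97, and another match, GGGGCTTTCC, at -78 to -69. The first start of NFKB2 had none. No match was present in these windows of TRAF1, TRAF2, TRAF5, TRAF6, MAP3K14, CHUK or LTBR. A match is a description of the letters and not a site of binding.

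Of the 10 genes, 9 had at least 10 reads summed over both libraries. TRAF3, RELB and NFKB2 were higher in Ramos640 by more than 1.5-fold, the fold criterion of the study, and TRAF1 was lower by more than 1.5-fold. The other 5 lay within 1.5-fold. By this criterion 14.6% of all 18778 genes with at least 10 reads stood higher in Ramos640 and 17.3% stood lower. Over the 13677 genes with at least 100 reads, a number that all 9 pathway genes passed, the shares were 9.94% and 12.6%. The whole counting interval lay past 1.5-fold for TRAF3, RELB and NFKB2 (5.79% of all genes on the higher side and 7.35% on the lower), but not for TRAF1. At 2-fold only TRAF3 and RELB passed, against 6.64% of all genes on the higher side and 8.75% on the lower. Counting intervals lay above 0 for 4 of the 9 genes and below 0 for 4, against 29.6% and 31.6% of all genes with at least 10 reads. Their median on the log2 scale was 0.13, beside -0.015 for all genes tested. In bulk RNA, fewer cells that carry a transcript and less of it per cell cannot be told apart.

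LTBR, the receptor for membrane lymphotoxin, was read 2 times in Ramos and 1 time in Ramos640. Both counts are under the floor of 3 reads, so no fold is given and a difference was not detectable at this depth. LTBR is known from stromal and myeloid cells rather than from lymphocytes. It overlaps SCNN1A on the opposite strand, with 27 and 61 reads, and the use of strand in counting was not given in the sources used here. Of the other 9 genes, only TRAF2 overlapped another row of the table, a microRNA with 1 read.

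TRAF3, the adaptor that keeps NIK low in resting B cells, had the largest difference of the 9 genes. Its GRCh37 position is chromosome 14, 103243786 to 103377837. The gene positions that follow are also on GRCh37, unlike those of the sequences above, which are on GRCh38.p14. Ramos gave 42 reads of TRAF3 and Ramos640 gave 208. These counts came to 36.8 and 237 normalized reads, a 6.31-fold higher level in Ramos640 (2.66 on the log2 scale, interval from 2.21 to 3.20). This fold change exceeded that of 99.8% of the 13677 genes with at least 100 reads. Even so, TRAF3 stayed low beside TRAF2. Per length of transcript, TRAF3 stood at 0.0110 of TRAF2 in Ramos and 0.0489 in Ramos640, so the ratio changed 4.45-fold (exact conditional interval from 3.15 to 6.42, counting error only). A ratio of 2 genes within each library does not depend on how the libraries are scaled.

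TRAF2, which bridges TRAF3 to the ubiquitin ligases BIRC2 and BIRC3, was read 1110 times in Ramos and 1234 times in Ramos640. Its normalized level was 1.45-fold higher in Ramos640 (0.53 on the log2 scale, interval from 0.42 to 0.65), short of 1.5-fold. TRAF2 lies on chromosome 9 from 139776364 to 139821059. TRAF1, an adaptor that lacks the RING domain of its relatives and pairs with TRAF2, went the other way. Its reads numbered 1720 in Ramos against 847 in Ramos640, or 1507 and 967 normalized reads, a 1.56-fold lower level (log2 fold change -0.64, interval from -0.76 to -0.52). TRAF1 lies on chromosome 9 from 123664671 to 123691451. TRAF1 is a known NF-κB target gene, as are NFKB2 and RELB, and in these libraries it was lower in Ramos640 where those were higher.

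TRAF5, an adaptor of CD40 and CD27, was read 1577 times in Ramos against 1011 in Ramos640 (-0.26 on the log2 scale, interval from -0.38 to -0.15). TRAF6, which links CD40 and Toll-like receptors to canonical NF-κB, had 380 and 225 reads (log2 fold change -0.37, interval from -0.62 to -0.13). Both lay within 1.5-fold on the lower side. As a share of the reads per kb of the 5 TRAF genes, TRAF2 held 36.7% in Ramos and 51.9% in Ramos640. TRAF1 held 29.6% and 18.6%, TRAF5 29.7% and 24.2%, and TRAF6 3.61% and 2.72%. TRAF3 held 0.403% and 2.54%. With the union of all exons as the length of each gene, TRAF1 was the largest of the 5 in Ramos (42.1%) and TRAF2 the largest in Ramos640 (49.3%).

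Both kinases lay within 1.5-fold. MAP3K14, which encodes NIK, gave 830 reads in Ramos against 698 in Ramos640, or 727 and 797 normalized reads. Its log2 fold change of 0.13 had an interval from -0.016 to 0.28, which holds 0, so no difference beyond counting error was seen. CHUK, which encodes IKKα, had 1196 and 825 reads, or 1048 and 941 normalized reads (log2 fold change -0.15, interval from -0.28 to -0.025). MAP3K14 lies on chromosome 17 from 43340486 to 43394395 and CHUK on chromosome 10 from 101948057 to 101989353. Set against TRAF3, its inhibitor, MAP3K14 had 34.7 times the reads per length in Ramos and 5.90 times in Ramos640. That ratio was 5.88-fold lower in Ramos640 (exact conditional interval from 4.14 to 8.53).

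The transcription factor subunits at the end of the pathway were both higher in Ramos640. RELB, on chromosome 19 from 45504719 to 45541450, gave 2065 reads in Ramos against 3486 in Ramos640. Its normalized level went from 1810 to 3978 reads, a 2.20-fold difference (log2 fold change 1.14, interval from 1.06 to 1.22). NFKB2, on chromosome 10 from 104153867 to 104162281, had 1821 and 2623 reads. Its normalized level went from 1596 to 2993 reads, a 1.88-fold difference (log2 fold change 0.91, interval from 0.82 to 0.99). The fold changes of RELB and NFKB2 exceeded those of 97.7% and 95.9% of genes with at least 100 reads.

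**Figure D1:**
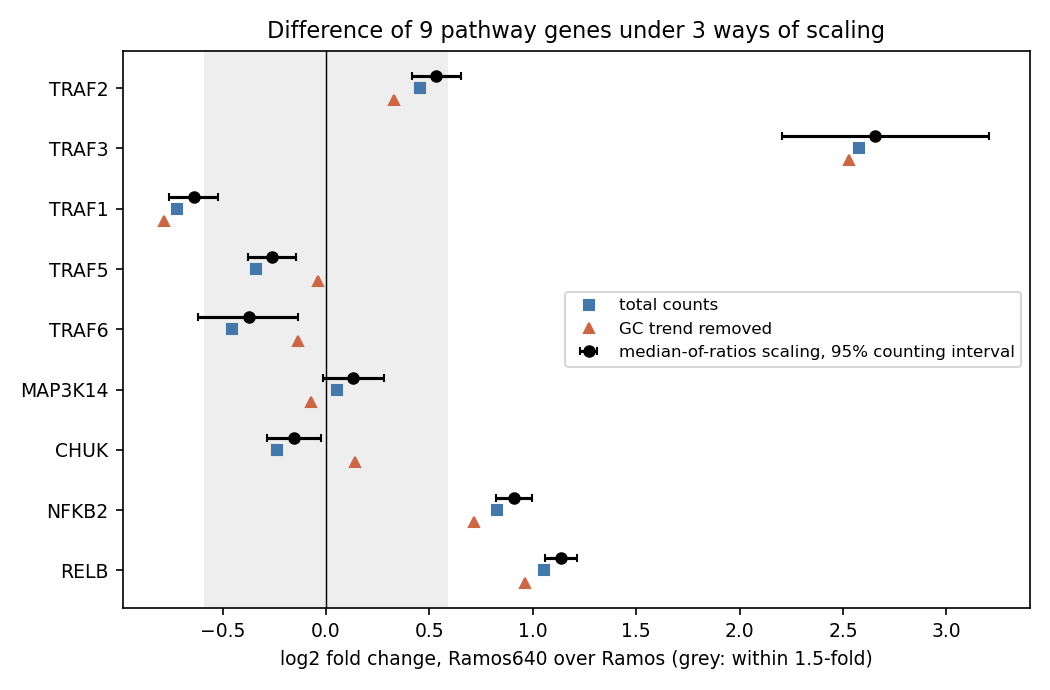
log2 fold change of Ramos640 over Ramos (horizontal axis) for the 9 pathway genes with at least 10 reads, with 1 library per cell line. Black points are scaled by median of ratios with 95% counting intervals, squares by total counts, and triangles have the trend over GC content removed. TRAF3 (2.66), RELB (1.14) and NFKB2 (0.91) lie to the right of the grey band of 1.5-fold and TRAF1 (-0.64) to its left in all 3.

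Per length, RELB was the most abundant of the 10 transcripts in both libraries, with 801 normalized reads per kb in Ramos and 1762 in Ramos640. NFKB2 came next with 529 and 993, then TRAF2 with 429 and 621. In Ramos these were followed by TRAF5 (348) and TRAF1 (346), whose counting intervals overlapped, CHUK (291), MAP3K14 (164), TRAF6 (42.2), TRAF3 (4.71) and LTBR (0.821). In Ramos640 the order after TRAF2 was TRAF5 (290) and CHUK (262), whose intervals overlapped, then TRAF1 (222) and MAP3K14 (179). TRAF6 (32.6) and TRAF3 (30.4) followed with overlapping intervals, and LTBR (0.535) came last. By this measure TRAF1 stood above CHUK in Ramos and below it in Ramos640. TRAF3, far below TRAF6 in Ramos, came close to it in Ramos640 by this measure. With the union of exons as length, RELB was again first in both libraries and TRAF3 lay below TRAF6 in both (19.98 and 31.6 normalized reads per kb in Ramos640). By that length TRAF1 was above CHUK in both libraries (337 and 152 in Ramos, 216 and 136 in Ramos640). TRAF1 (337) was then also above NFKB2 (286) and TRAF2 (265) in Ramos, so the order between RELB and TRAF6 depends on the length used.

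**Figure D2:**
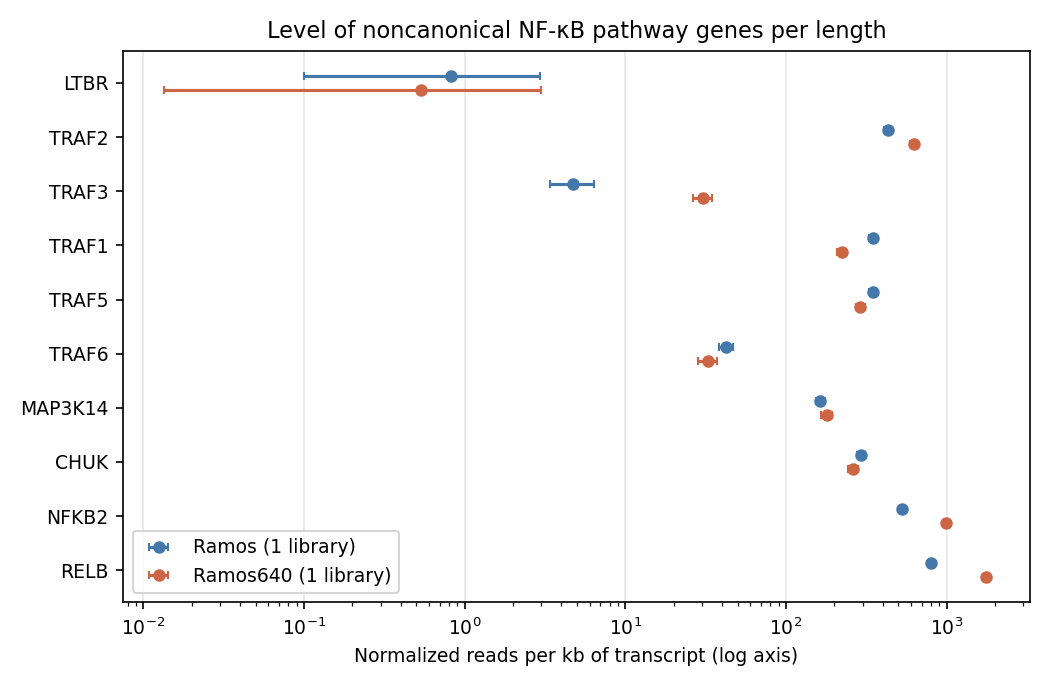
Normalized reads per kb of transcript on a log axis for the 10 pathway genes, with 1 library per cell line and 95% Poisson intervals that cover counting error only. RELB is highest in both libraries (801 and 1762), TRAF3 moves from 4.71 to 30.4, and the intervals of LTBR overlap below 3.

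RELB and NFKB2 were also set against the canonical subunits they parallel. RELA, which encodes p65, gave 2739 reads in Ramos against 3100 in Ramos640, a log2 fold change of 0.56. The RELB to RELA read ratio was 0.754 in Ramos and 1.12 in Ramos640, a 1.49-fold change (interval from 1.38 to 1.61). NFKB1, which encodes p105/p50, had 3943 and 3076 reads (log2 fold change 0.023, interval from -0.046 to 0.091). The NFKB2 to NFKB1 read ratio was 0.462 in Ramos and 0.853 in Ramos640, a 1.85-fold change (interval from 1.71 to 1.99). Both noncanonical subunits were therefore higher in Ramos640 relative to their partners as well as in level. For the kinases the ratio went the other way. IKBKB, which encodes the canonical kinase IKKβ, had 1562 and 1900 reads, and the CHUK to IKBKB ratio was 0.766 in Ramos and 0.434 in Ramos640, a 1.76-fold lower value (interval from 1.58 to 1.97). Removal of the trend over GC content, chosen for the ratios after seeing the data, left 1.49-fold for RELB to RELA. It left 1.68-fold for NFKB2 to NFKB1 and a 1.33-fold lower value for CHUK to IKBKB, both outside the counting intervals given here.

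Among the 5 Rel and NF-κB subunits, per length, RELB held 25.0% in Ramos and 34.7% in Ramos640, and NFKB2 held 16.5% and 19.6%. RELA held 29.8% and 27.7%, NFKB1 26.6% and 17.1%, and REL, which encodes c-Rel, 2.12% and 0.928%. RELA was thus the largest share in Ramos and RELB in Ramos640. With the union of exons as length, RELB was the largest share in both (37.9% and 48.0%).

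**Figure D3:**
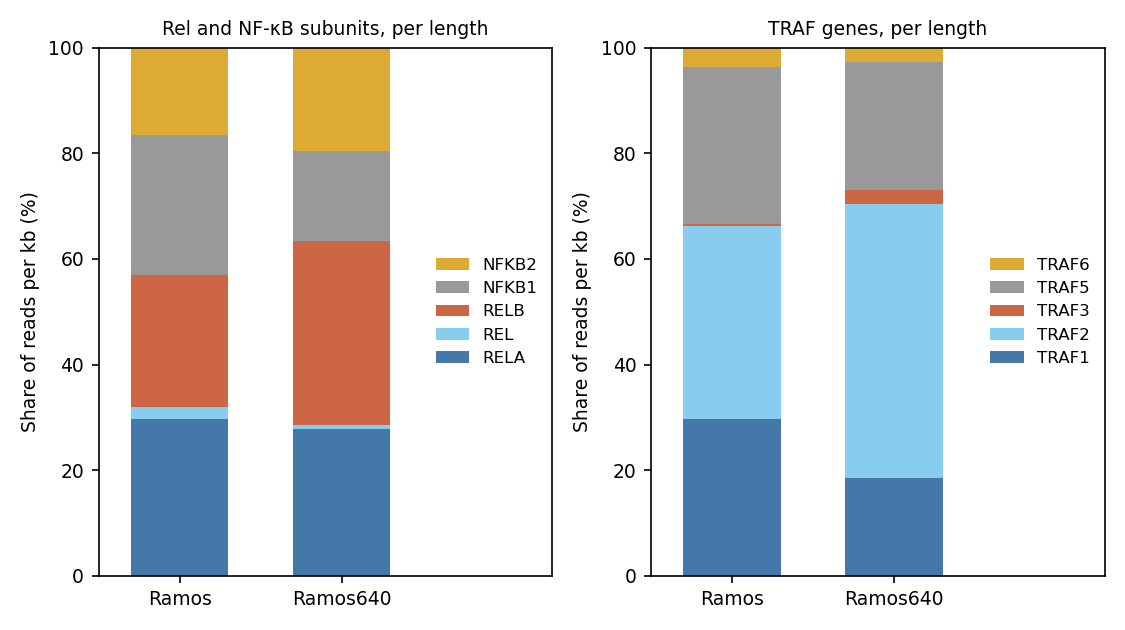
Share of reads per kb in each library among the 5 Rel and NF-κB subunits (left) and among the 5 TRAF genes (right), with each bar adding to 100%. The RELB segment grows from 25.0% to 34.7%, the TRAF2 segment from 36.7% to 51.9%, and the TRAF3 segment is thin in both (0.403% and 2.54%).

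The GC content of the transcripts moved with these differences. Among 10240 protein-coding genes of 100 or more reads, the tenth of lowest GC content had a median log2 fold change of -0.35, and the tenth of highest GC content one of 0.18. The 3 pathway genes under 50% GC (CHUK, TRAF6 and TRAF5, from 38.9% to 41.9%) were all lower in Ramos640. Of the 6 over 50% (from 54.5% in TRAF3 to 64.9% in RELB), 5 were higher and TRAF1 was lower. The running median of these genes at the GC content of each pathway gene ran from -0.29 to -0.22 for the first 3 and from 0.13 to 0.20 for the other 6. With this trend removed, TRAF3 stood at 2.53 on the log2 scale, RELB at 0.96, NFKB2 at 0.72 and TRAF1 at -0.78, all 4 still past 1.5-fold. By the same measure 12.5% of all genes with a known GC content were higher and 14.9% were lower. TRAF2 stood at 0.33. TRAF5 came to -0.037 and TRAF6 to -0.14, with 0 inside both intervals, while CHUK turned to 0.14 and MAP3K14 to -0.074. The intervals then lay above 0 for 5 of the 9 genes, with CHUK added, and below 0 for 1, TRAF1, against 31.3% and 29.5% of all genes with a known GC content.

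**Figure D4:**
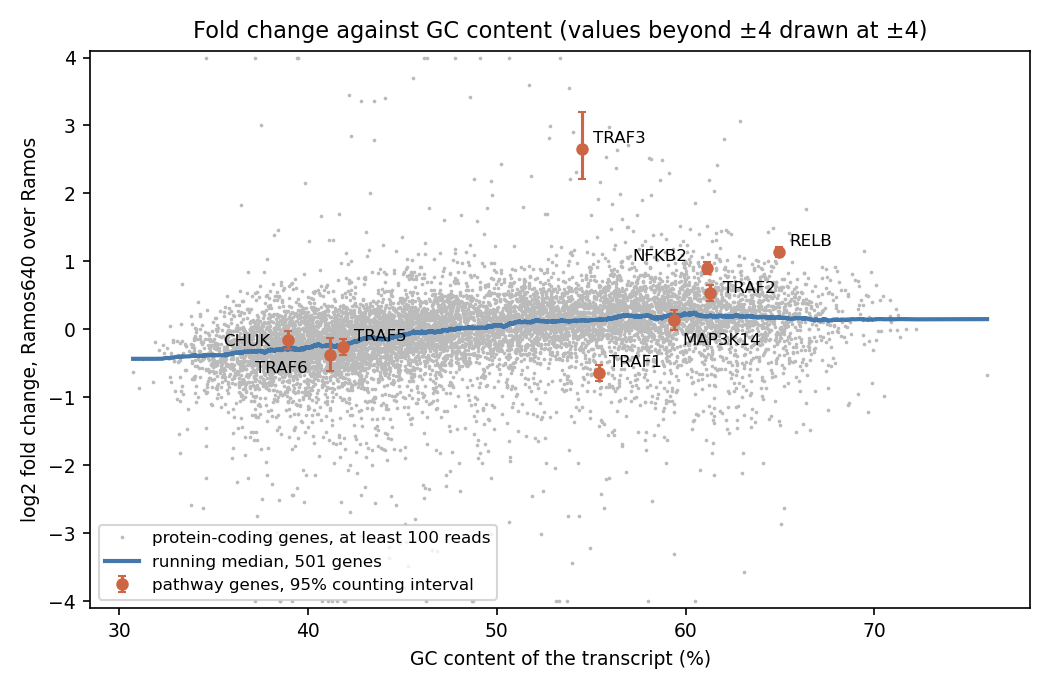
log2 fold change of Ramos640 over Ramos against the GC content of the transcript (%), for 10240 protein-coding genes (grey) and 9 pathway genes (orange, with 95% counting intervals), with 1 library per cell line. CHUK, TRAF6, TRAF5 and MAP3K14 lie near the running median, while TRAF3, RELB and NFKB2 lie above it and TRAF1 below it.

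The chromosomal surroundings of the 4 genes past 1.5-fold were compared within 500 kb, by the protein-coding genes of 100 or more reads. Of all genes with that many reads, 9.94% were higher and 12.6% were lower by more than 1.5-fold. The trend over GC content was not removed from the values of the neighbours. Of 8 such genes around TRAF3, 1 was higher by more than 1.5-fold and none was lower, and their median log2 fold change was 0.029. The nearest on either side were RCOR1 (-0.22) and CDC42BPB (-0.18, interval from -0.55 to 0.18). The exception was TNFAIP2, a TNF-induced gene that starts 209.976 kb beyond the end of TRAF3. It gave 34 reads in Ramos against 188 in Ramos640, a log2 fold change of 2.81 (interval from 2.32 to 3.42), much like TRAF3 in reads and in fold. Between them, and named after their values were seen, AMN had 39 and 31 reads (0.048, interval from -0.68 to 0.77) and EXOC3L4 had 26 and 40 (0.97, interval from 0.25 to 1.77). The median of the 8 genes was near 0, while TNFAIP2 and, with under 100 reads, EXOC3L4 were higher by more than 1.5-fold. A shared cause at this locus was not tested. Around RELB, 5 of 18 genes were higher and none was lower (median 0.29), and next to it CLPTM1 stood at 0.61 and CLASRP at 0.12. Around NFKB2, 2 of 16 were higher and none was lower (median 0.14), with GBF1 at 0.073 and FBXL15 at 0.83. Around TRAF1, none of 10 was higher and 2 were lower (median -0.19), with PHF19 at 0.037 and C5 at -0.53.

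Among the ligands and receptors that feed the pathway, CD70, LTA, CD27 and CD40 were higher in Ramos640 by more than 1.5-fold and the BAFF receptor was lower. The ligand with the most reads, TNFSF8, was lower but within 1.5-fold. Of 9 ligands, 4 passed the minimum of 10 reads, 2 were higher by more than 1.5-fold and none was lower (median log2 fold change 0.53), beside 14.6% and 17.3% of all genes. The lowest of the 4, TNFSF8, stood at -0.40, with its interval below 0, and is named after its values were seen. Together the 9 ligands summed to 168 CPM in Ramos and 154 CPM in Ramos640, and TNFSF8 held most of this sum in both libraries. CD70, the ligand of CD27, gave 820 reads in Ramos against 1189 in Ramos640 (0.92, interval from 0.79 to 1.05). LTA, which encodes lymphotoxin α, had 285 and 362 (0.72, interval from 0.50 to 0.96). Of 10 other receptors, 7 passed it, of which 4 were higher and 1 was lower (median 0.63), beside the same shares of all genes. CD27 had 4808 and 6561 reads (0.83, interval from 0.78 to 0.88) and CD40 had 2035 and 2425 (0.63, interval from 0.55 to 0.72). The other 2 that were higher, TNFRSF1B and TNFRSF8, had under 100 reads and are named after their values were seen. The exception was TNFRSF13C, the BAFF receptor, with 113 and 30 reads (-1.51, interval from -2.16 to -0.94). With the GC trend removed, LTA (0.53) and CD40 (0.55) came to lie within 1.5-fold.

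Of 15 regulators of NIK and p100, 14 passed the minimum, and 2 of these were higher and 2 lower by more than 1.5-fold (median -0.19). Of all genes, 14.6% were higher and 17.3% were lower. TRAF4, another member of the TRAF family, had 2640 and 4035 reads (0.99, interval from 0.92 to 1.06). TNFAIP3, which encodes the deubiquitinase A20, had 368 and 541 (0.94, interval from 0.74 to 1.13). TBK1, a kinase that restrains NIK, had 871 and 434 (-0.62, interval from -0.79 to -0.46). OTUD7B, which removes ubiquitin from TRAF3, had 32 and 10 reads (-1.23, interval from -2.49 to -0.24) and is named after its values were seen. BIRC2 (-0.36) and BIRC3 (-0.042), the ligases that act with TRAF2 and TRAF3, lay within 1.5-fold. Among 9 canonical subunits, kinases and inhibitors, 3 were higher and none was lower (median 0.54), beside the same shares of all genes. These were BCL3 (1.77), an IκB relative that acts in the nucleus with p52 or p50, IKBKB (0.66) and NFKBIE (0.62). BCL3 also had the largest log2 fold change of the 18 genes counted within 500 kb of RELB. With the GC trend removed TBK1 (-0.30), IKBKB (0.55) and NFKBIE (0.39) came to lie within 1.5-fold. The same removal took TANK, a TRAF-binding adaptor named after its values were seen, from 0.57 to 0.91, so that 3 regulators were higher and 1 was lower.

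Of 33 NF-κB target genes, 23 passed the minimum, and 8 of these were higher and 2 lower by more than 1.5-fold, with a median log2 fold change of 0.023. Of the higher genes with at least 100 reads, those with the largest differences after TNFAIP2 (2.81) and TNFAIP3 were LTA, CFLAR (0.70), which encodes the caspase 8 inhibitor c-FLIP, FAS (0.67), a death receptor, and CD40. CCR7 (2.06, 6 and 22 reads) and NFKBIE were the other 2 that were higher. STAT5A (-0.59) and CD44 (-1.69, 53 and 12 reads) were lower. CCR7, STAT5A and CD44 are named after their values were seen. Several genes stand on more than 1 of these lists. NFKBIA (-0.25), which encodes IκBα and is a common target, lay within 1.5-fold. Of all genes, 14.6% were higher and 17.3% were lower. Although 8 of 23 is above the first of these shares, the median was near that of all genes (-0.015). With the GC trend removed 5 target genes were higher, beside 12.5% of all genes with a known GC content. Chemokines known as RelB targets in stromal tissue, CXCL12, CXCL13, CCL19 and CCL21, had no reads in either library.

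**Figure D5:**
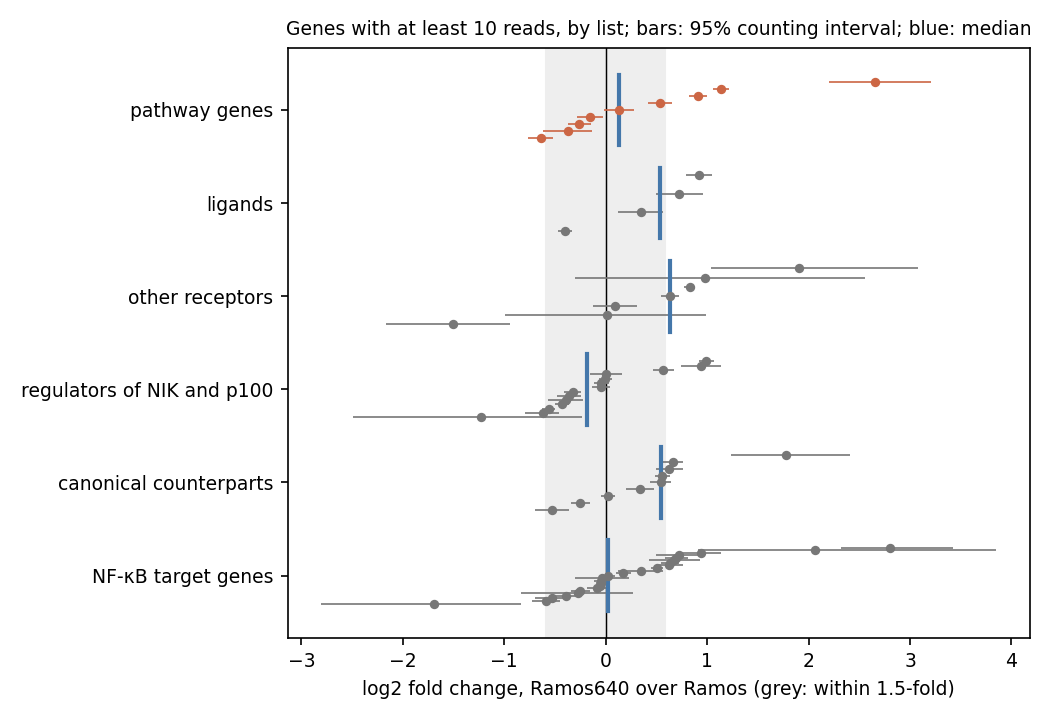
log2 fold change of Ramos640 over Ramos for the genes with at least 10 reads in each list, with 1 library per cell line, 95% counting intervals as bars and the list median as a blue line. The pathway genes run from -0.64 to 2.66 around a median of 0.13, and the medians of the ligands (0.53), other receptors (0.63) and canonical counterparts (0.54) lie above those of the regulators (-0.19) and target genes (0.023).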

How the data were processed

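RNA-seq was analysed for Ramos (1 library) and Ramos640 (1 library). After adaptor trimming, Ion Proton reads were aligned to GRCh37 with MapSplice, and the authors deposited whole-number counts per gene, not normalized. Which program and annotation gave the counts, how reads matching more than 1 gene were treated and whether strand was used are not given in the sources used here.

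Median-of-ratios size factors scaled the counts, since the study used DEseq, and the libraries were compared as a log2 fold change with a pseudocount of 1 for genes with at least 10 reads summed over both libraries. Without replicates no dispersion can be estimated, so no model was fitted and no p-value is given. TMM factors came from edgeR 4.0.16 in R 4.3.3. All other steps used Python 3.11.15 with scipy 1.17.1. GENCODE v44lift37 (GRCh37) gave coordinates, transcript lengths and GC content, with the MANE Select transcript for all 10 pathway genes, and covered 84.1% of the genes tested. The intervals and the GC trend were tested on simulated data. The simulated counts held counting error only, so they say nothing about variation between libraries.

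Named genes are the 10 pathway genes, the partners of ratios, the nearest neighbours, and in each other list at most the 6 largest differences past 1.5-fold with at least 100 reads. Where other genes are named, they were chosen for their role in the pathway or after their values were seen. The pathway genes and the lists were chosen with earlier results of these data known.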

Additional observations from a re-analysis of the deposited data

How the results depend on the processing

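TRAF3, RELB and NFKB2 were the 3 pathway genes higher by more than 1.5-fold, and TRAF1 the 1 lower, with TMM factors, total counts, pseudocounts of 0.1 and 10 and with the GC trend removed. Total counts moved the median of all genes tested by -0.080 on the log2 scale and TMM by -0.0098. At 2-fold, TRAF3 and RELB remained (2 genes higher, 0 lower, against 6.64% and 8.75% of all genes). When the whole counting interval had to lie past 1.5-fold, 3 were higher and 0 lower, against 5.79% and 7.35% of all genes, so the call of TRAF1 was lost under both. The median of the pathway genes turned to -0.012 with genes of at least 1 read, because LTBR entered. With the GC trend removed, MAP3K14 turned to -0.074 and CHUK to 0.14. The same removal, chosen for the ratios after seeing the data, left a change of 1.68-fold for NFKB2 to NFKB1. For CHUK to IKBKB it left 0.754-fold, which is 1.33-fold lower.

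Of all genes, 9.94% were higher and 12.6% lower with at least 100 reads, and 12.5% and 14.9% with the GC trend removed. At 2-fold the shares were 6.64% and 8.75%, and by whole intervals 5.79% and 7.35%. Shares of all genes were not computed with TMM factors, total counts, other pseudocounts or at least 1 read. Counts under those settings therefore have no such comparison, and a change in them may hold for all genes alike. The ligands had 2 lower genes with at least 1 read, and 1 higher gene with the GC trend removed, 0 at 2-fold and 1 by whole intervals. The other receptors had 2 higher genes with at least 100 reads, 1 at 2-fold and 2 by whole intervals. The regulators had 3 higher genes with the GC trend removed and 0 at 2-fold, and 1 lower gene with at least 100 reads, with the GC trend removed and at 2-fold, and 0 by whole intervals. The target genes had 5 higher genes with the GC trend removed, 2 at 2-fold and 3 by whole intervals, and 1 lower gene with a pseudocount of 10, with at least 100 reads, at 2-fold and by whole intervals. With total counts the target genes had 6 higher and 3 lower genes, and the regulators had 3 lower. The other receptors had 3 higher genes with total counts, with a pseudocount of 10 and with the GC trend removed. Apart from the entry of LTBR and the narrower criteria, the cause was not tested. No paired analysis was possible because each cell line had 1 library. Depth limits LTBR, which was under the floor of 3 reads in both libraries.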
